A study of Mus musculus with 9 samples.

Results

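C1q is the recognition protein that starts the classical complement pathway, and its A, B and C chains are encoded by C1qa, C1qb and C1qc. These 3 genes, of 18193 named on the arrays, were read by 5 of 45101 probe sets, each a group of short probes for 1 transcript: 1 for C1qa, 3 for C1qb and 1 for C1qc. They were chosen by name, as all probe sets that the platform annotation assigns to 1 of these genes and to no other. The animals were female Babl/c mice (the labels' spelling of BALB/c, an albino strain) aged 10 weeks. Each of 9 arrays carried RNA of the neurosensory retina from a pool of 3 right eyes. The 3 control pools came from mice kept in relative darkness, at an illuminance the labels do not give. The 3 2954K pools came from mice under warm white LEDs (light-emitting diodes) and the 3 7378K pools from mice under cold white LEDs, both at 1000 lx, the groups being named by colour temperature. The housing lasted 14 days, in cycles of 12 h on and 12 h off. Each array stands for 1 pool, and n = 3 per group throughout.

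Each chain has a collagen-like stalk and a globular head, and several copies of all 3 chains assemble into the complete molecule, so the complex needs every chain. The heads bind immune complexes and the surfaces of dying cells and synapses, and the stalks carry the proteases C1r and C1s, which then cleave C4 and C2 and lead to deposition of C3. In brain and retina, microglia and other resident macrophages are the main known source of C1q, where it is known for marking synapses and debris for uptake.

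The 3 genes lie side by side on mouse chromosome 4, in the order C1qb, C1qc, C1qa. RefSeq promoter sequences (build GRCm38.p6) are shown for C1qb and C1qc, to set the starts of these neighbouring genes side by side; that of C1qa is not shown. Each is the stretch of 250 bases before the transcript start, on the minus strand, read 5' to 3', with the match to a searched motif in capitals.
C1qb, chr4:136886201-136886450: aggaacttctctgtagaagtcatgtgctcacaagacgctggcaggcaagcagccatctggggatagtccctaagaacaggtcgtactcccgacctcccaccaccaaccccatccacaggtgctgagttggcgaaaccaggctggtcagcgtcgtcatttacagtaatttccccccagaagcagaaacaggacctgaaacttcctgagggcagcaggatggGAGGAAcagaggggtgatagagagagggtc
C1qc, chr4:136892915-136893164: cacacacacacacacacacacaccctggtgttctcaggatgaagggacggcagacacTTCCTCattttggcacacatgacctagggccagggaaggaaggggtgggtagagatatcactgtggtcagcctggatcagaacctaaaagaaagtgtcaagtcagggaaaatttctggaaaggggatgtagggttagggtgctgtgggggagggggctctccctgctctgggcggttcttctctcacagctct
Of 8 motifs searched on both strands, 1 matched, GAGGAA, a form of the site bound by Ets factors such as the myeloid factor PU.1. It lay 30 to 25 bases before the start of C1qb in the direction of the gene, and 193 to 188 bases before the start of C1qc on the opposite strand. Of 32851 promoter windows of this length, 23.3% held the same letters, so the match is common. The shorter run GGAA, part of GAGGAA, was not searched by itself and also occurs outside the capitals in both windows. The other 7 motifs were not found in either window: GGAA and GAAA with NN between for Ets with IRF (in 2.3% of windows), GAAA and GAAA with NN between for interferon responses (2.98%), TTGCNNAA for C/EBP (9.56%), TTCNNNGAA for STAT (7.02%), TGANTCA for AP-1 (6.75%), the E-box CACGTG (6.02%) and TATAAA (12.4%). The motif of Ets with IRF can overlap GAGGAA and the interferon motif. A match or its absence is a description of letters and says nothing of binding.

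The arrays differed in ways that touch the values below. The 3' minus 5' difference of the Gapdh and beta-actin control probe sets, which grows when the 5' ends of transcripts are lost, was 0.20 to 0.42 (log2) in controls, 0.21 to 2.78 in 2954K arrays and 1.55 to 1.80 in 7378K arrays. The same difference of dap, a bacterial spike-in that follows the labelling step, was 0.79 to 1.63 in controls. It was 0.89 to 2.73 in 2954K arrays and 2.55 to 2.81 in 7378K arrays. The lens crystallin gene Crybb2 read 14.75, 12.63 and 9.99 in the third array of the control, 2954K and 7378K groups and 3.08 to 7.69 in the other 6. Rpe65, of the pigment epithelium that was to be removed, read 9.73 to 11.83 over the 9 arrays. All 16 measured markers of the neural retina lay above the filter value of 5.91 on every array. Probe sets whose mean over the 9 arrays lay below that value, the 40th percentile of all means, were left out as dim, and 27022 were tested.

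C1qa, the A chain, was read by probe set 1417381_at. Its log2 signal was 7.71, 7.07 and 7.96 in controls 1 to 3, 9.43, 10.27 and 9.99 under 2954K light, and 10.02, 9.92 and 9.95 under 7378K light. All 6 LED arrays lay above all controls, with a gap of 1.47 between the lowest LED array and the highest control, and the 7378K arrays lay closest together. C1qa rose 4.98-fold under 2954K light (difference of group means 2.32 ± 0.25 (SE), limma adjusted p = 0.0011) and 5.21-fold under 7378K light (2.38 ± 0.25, adjusted p = 0.00064). Of the 27022 tested probe sets 0.496% were called higher at an adjusted p under 0.05 in the first comparison and 1.25% in the second, and by size the difference of C1qa stood at rank 32 and rank 36.

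C1qb, the B chain, was read by 3 probe sets that share 1 gene and are not independent. Those with the suffix _x_at are, by the maker's naming, probe sets in which some probes may also match other transcripts. Probe set 1417063_at read 6.79, 6.96 and 7.24 in controls, 8.20, 9.17 and 8.85 under 2954K light and 8.95, 8.96 and 8.72 under 7378K light. The groups were apart by 0.96 at their closest, and 2954K 1 was the lowest LED array. This probe set rose 3.35-fold under 2954K light (1.74 ± 0.24, adjusted p = 0.0071) and 3.68-fold under 7378K light (1.88 ± 0.24, adjusted p = 0.0034).

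Probe set 1434366_x_at, also of C1qb, read 7.50, 7.12 and 7.65 in controls, 8.72, 8.71 and 8.75 under 2954K light and 9.17, 9.30 and 9.03 under 7378K light. Here the 3 groups formed 3 separate steps with no overlap. It rose 2.46-fold under 2954K light (1.30 ± 0.17, adjusted p = 0.0064) and 3.35-fold under 7378K light (1.74 ± 0.17, adjusted p = 0.00049).

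The third probe set of C1qb, 1437726_x_at, read 7.39, 6.56 and 7.09 in controls, 8.86, 9.28 and 9.30 under 2954K light and 9.08, 9.49 and 9.55 under 7378K light. The LED arrays again lay above all controls, by at least 1.48, and the LED groups overlapped. It rose 4.38-fold under 2954K light (2.13 ± 0.23, adjusted p = 0.0013) and 5.13-fold under 7378K light (2.36 ± 0.23, adjusted p = 0.00046). The 3 probe sets of C1qb gave the same direction, with differences of 1.30 to 2.13 for 2954K and of 1.74 to 2.36 for 7378K. Whether these sizes differ from one another was not tested.

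C1qc, the C chain, was read by probe set 1449401_at. Its controls read 5.48, 2.75 and 6.82, the 2954K arrays 8.55, 8.62 and 8.64, and the 7378K arrays 8.50, 8.53 and 8.49. The LED arrays spanned 0.15 in all, while the controls spanned 4.07, and 2 of the 3 controls lay below the filter value, where the signal is dim. Every LED array lay at least 1.67 above the highest control. The difference was 3.59 ± 0.74 for 2954K (95% confidence interval 1.95 to 5.22, adjusted p = 0.073), which did not pass, and 3.49 ± 0.74 for 7378K (1.85 to 5.13, adjusted p = 0.041), which passed. Set against the filter value in place of the dim control mean of 5.02, the LED means were 6.48-fold and 6.06-fold higher.

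The size of the C1qc difference rested on the controls. Without control 2, the lowest, it was 2.45 for 2954K (adjusted p = 0.014) and 2.36 for 7378K (adjusted p = 0.012). Without control 3, the highest, it was 4.49 and 4.39 (adjusted p = 0.0077 and 0.0059). Leaving out 1 array at a time ended the 7378K call in 5 of 9 cases: control 1 (adjusted p = 0.099), 2954K 3 (0.065) and 7378K 1, 2 and 3 (0.15, 0.14 and 0.14). The 2954K difference passed in 3 of 9 cases, without control 2, control 3 or 2954K 2 (adjusted p = 0.030 for the last), and with 1 probe set per gene over 12765 genes (adjusted p = 0.034).

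**Figure D1:**
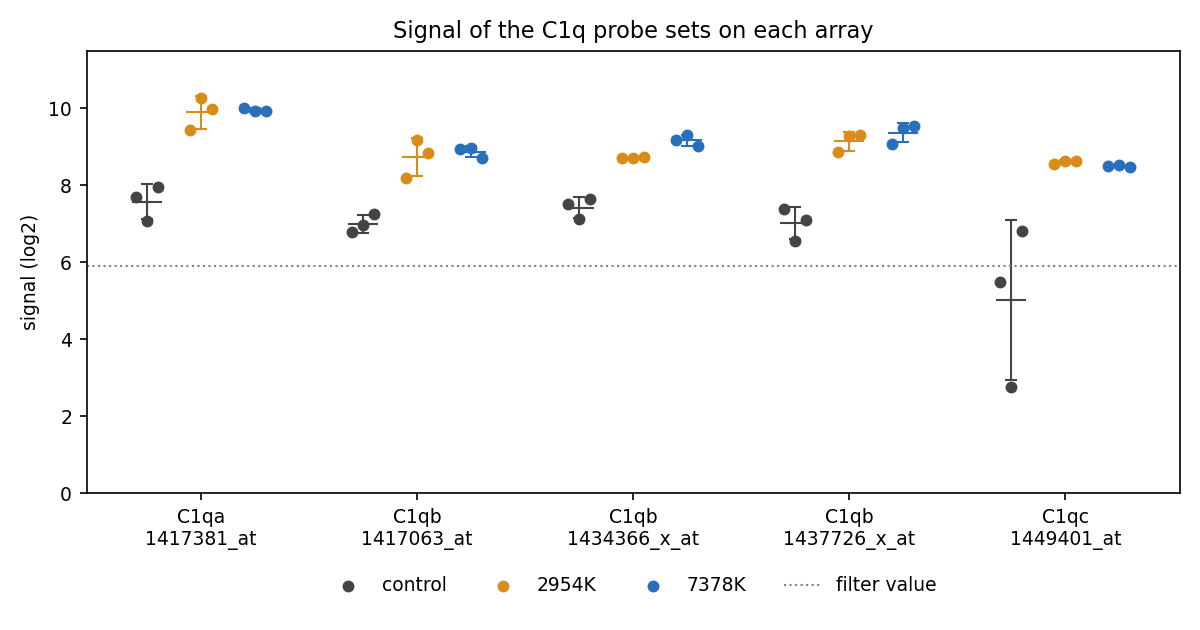
Log2 signal of the 5 C1q probe sets on each array, with points for the 3 arrays of each group, horizontal marks for the group mean and bars for 1 SD. In every probe set the 6 LED arrays lie above the 3 controls, and the controls of C1qc spread from 2.75 to 6.82 around the dotted filter value of 5.91.

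By probe set, 4 of 5 were called higher under 2954K light and 5 of 5 under 7378K light. Of all 27022 tested probe sets, 0.496% and 1.25% were called higher. C1qc passed the filter only through its LED arrays, and with no filter, over 45037 probe sets, C1qc again passed for 7378K alone (adjusted p = 0.077 and 0.043). The LED groups did not overlap with the controls for any of the 5, where 6.52% of tested probe sets were higher in this way under 2954K light and 17.6% under 7378K light. In size, the 4 probe sets of C1qa and C1qb stood between rank 32 and rank 176 of 27022 under 2954K light and between rank 36 and rank 98 under 7378K light. C1qc is given no rank, since its difference is taken from dim controls. Both comparisons use the same 3 controls.

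The cold and warm LED groups were then set against each other. C1qa differed by 0.07 (95% confidence interval -0.47 to 0.61, adjusted p = 0.98), a ratio of 7378K to 2954K of 1.05 (0.720 to 1.52). The C1qb probe set 1417063_at differed by 0.14 (-0.40 to 0.68, adjusted p = 0.96) and 1437726_x_at by 0.23 (-0.29 to 0.74, adjusted p = 0.93). For these the LED groups overlapped. Probe set 1434366_x_at was 0.44 higher under 7378K light (0.06 to 0.83, unadjusted p = 0.027, adjusted p = 0.91), with all 3 7378K arrays above all 3 2954K arrays. C1qc differed by -0.10 (-1.73 to 1.54, adjusted p = 0.99), with all 3 7378K arrays just below the 2954K arrays. The fit uses the same spread for all groups, so the width of this interval comes mostly from the C1qc controls. Their SD was 2.07, against 0.05 under 2954K light and 0.02 under 7378K light.

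So 2 of 5 probe sets had LED groups that did not overlap, 1 in each direction, where 5.70% of tested probe sets were higher and 3.69% lower in this way. In limma 0 of 27022 probe sets were called between the LED groups (0.00%). An unadjusted p under 0.05 was found for 1346 (4.98%), about the share that this threshold lets through with no differences at all. A p that misses the threshold does not show that the lights acted alike. The intervals give the differences that the fit allows, with a spread shared with the controls. For C1qc the interval is far wider than the range of 0.15 over the LED arrays. Without 2954K 1, the array with the highest 3' minus 5' difference and the lowest LED value of C1qa and 1417063_at, the differences of these probe sets turned to -0.17 and -0.13.

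**Figure D2:**
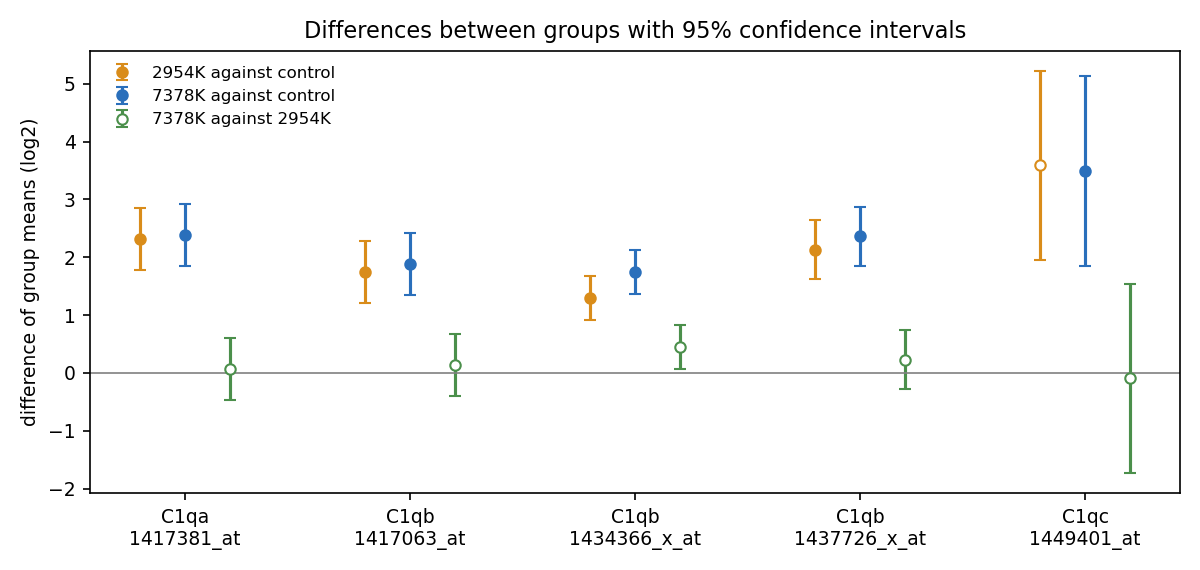
Differences between group means (log2) of the 5 C1q probe sets with 95% confidence intervals from limma. Filled points have an adjusted p under 0.05: 4 of 5 for 2954K against control, 5 of 5 for 7378K against control and 0 of 5 for 7378K against 2954K. The shares called higher over all tested probe sets were 0.496%, 1.25% and 0.00%.

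To follow the chains array by array, each value was taken as its difference from the control mean of its own probe set, since levels of different probe sets cannot be compared. The lowest and highest of the 5 differences were 1.20 and 3.53 in 2954K 1, 1.28 and 3.61 in 2954K 2, and 1.32 and 3.62 in 2954K 3. They were 1.75 and 3.48 in 7378K 1, 1.87 and 3.51 in 7378K 2, and 1.61 and 3.47 in 7378K 3. The median of the 5 lay between 1.85 (2954K 1) and 2.37 (7378K 3), so each LED array carried a raised signal for every chain. C1qc gave the highest value on every LED array, measured from a control mean that its lowest control pulled down.

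Among the controls, control 3 was above its group mean in 5 of 5 probe sets and control 2 below it in 5 of 5, with median deviations of 0.25 and -0.45. Control 3 was also the control with the highest lens signal. In the 2954K group, 2954K 1 lay below its group mean in 5 of 5 probe sets and 2954K 3 above it in 5 of 5, with median deviations of -0.28 and 0.09. The 7378K arrays had no such order, with 3, 4 and 1 of 5 probe sets above the group mean. Probe sets of 1 array share its RNA, labelling and scaling, so such agreement is a description of the arrays.

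Over the 6 LED arrays, 10 pairs of probe sets were correlated. C1qa and 1417063_at of C1qb gave Pearson's r = 0.96 (two-sided p = 0.0278 by exact permutation, 0.278 after Benjamini-Hochberg adjustment) and Spearman's rho = 0.66 (exact p = 0.175, adjusted p = 1). Without 2954K 1 and 2954K 2, the arrays farthest from the median, r was 0.19, so the relation rests on those arrays. The other 9 pairs had r between -0.72 and 0.55 (exact permutation p of 0.1333 or more, 0.6665 or more after adjustment). The lowest of these joined 1434366_x_at and C1qc, and the probe sets of C1qb among themselves gave 0.28 to 0.55. All chains were higher in LED than in control arrays, and no pair tracked each other among the LED arrays past the correction.

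**Figure D3:**
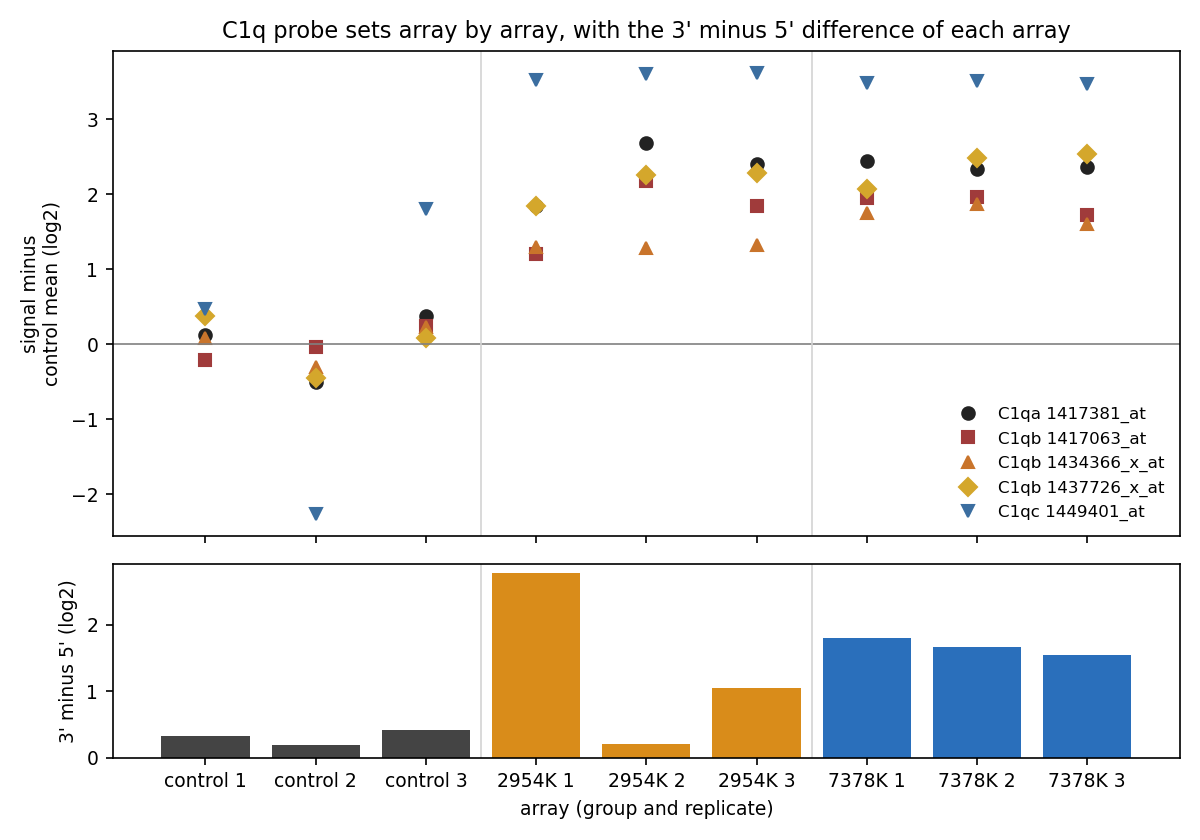
Upper panel, log2 signal of each C1q probe set minus its own control mean on the 9 arrays; lower panel, 3' minus 5' difference (log2) of Gapdh and beta-actin on the same arrays. All 5 probe sets are at 1.20 or above on every LED array. The 3' minus 5' difference is above the control range of 0.20 to 0.42 in every LED array but 2954K 2, where it is 0.21. Light and this difference cannot be told apart here.

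The 3' minus 5' difference was higher in 5 of 6 LED arrays than in any control. In 2954K 2, where it was 0.21, the C1q differences from control were 2.69 for C1qa, 2.17, 1.28 and 2.26 for C1qb and 3.61 for C1qc. This is 1 pool, and light and the 3' minus 5' difference cannot be told apart from it. With the 3' minus 5' difference entered as covariate, C1qa differed by 2.61 under 2954K light and by 2.77 under 7378K light (adjusted p = 0.00049 and 0.00062), and the C1qb probe sets kept their calls, with differences of 1.27 to 2.31 and of 1.71 to 2.59. C1qc differed by 3.48 and 3.35 with the covariate (adjusted p = 0.19 and 0.25) and lost its 7378K call. With dap, the spike-in that follows the labelling step, used in the same way, C1qa differed by 2.43 and 2.65 (adjusted p = 0.0010 and 0.0090). The C1qb probe sets kept their calls, with differences of 1.22 to 2.17 and of 1.55 to 2.45. C1qc differed by 3.09 and 2.32 (adjusted p = 0.15 and 0.61).

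Without the third array of each group, those with the most lens signal, 2 arrays a group remained. C1qa differed by 2.46 under 2954K light (adjusted p = 0.053) and by 2.58 under 7378K light (adjusted p = 0.032). The C1qb probe sets differed by 1.81, 1.40 and 2.09 under 2954K light (adjusted p = 0.18, 0.094 and 0.094). Under 7378K light they differed by 2.08, 1.92 and 2.31 (adjusted p = 0.082, 0.020 and 0.053). C1qc differed by 4.47 and 4.40 (adjusted p = 0.15 and 0.12), so with these 6 arrays 0 of 5 probe sets passed under 2954K light and 2 of 5 under 7378K light.

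Genes of the C1 proteases and their inhibitor were measured next, each by its probe set with the highest mean. Serping1, the C1 inhibitor, read 7.34, 7.11 and 9.22 in controls, 9.18, 9.34 and 10.15 under 2954K light and 9.95, 9.77 and 9.58 under 7378K light. Control 3 overlapped the 2954K arrays, and the differences of 1.67 and 1.88 did not pass (adjusted p = 0.21 and 0.061). C1s1, the C1s protease, read 6.12 ± 0.84, 6.37 ± 1.26 and 6.06 ± 0.74 (mean ± SD) in control, 2954K and 7378K. C1ra, the C1r protease, lay below the filter at 4.26 ± 2.12, 5.32 ± 1.84 and 5.84 ± 0.65 in the same order, which the triplets of group means below also follow. Of 2 tested genes of this list 0 were called in either comparison. Over all tested probe sets 0.496% and 1.25% were called higher and 0.0518% and 0.951% lower. A count of 0 in this or a later short list is therefore near the overall share.

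Of 11 later cascade genes on the array, 2 were tested and 9 lay below the filter, among them C2, a substrate of C1s. Cfi, factor I, the protease that cleaves C3b and C4b, read 7.12, 6.65 and 6.68 in controls, 8.53, 8.09 and 8.61 under 2954K light and 8.54, 8.18 and 8.36 under 7378K light. It rose 3.01-fold and 2.91-fold (adjusted p = 0.0068 and 0.0057), with no overlap. Cfp, properdin, which stabilises the alternative convertase, read 10.10, 10.30 and 10.64 (adjusted p = 0.69 and 0.12). Other genes of the cascade were not analysed here.

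Of 8 lectin pathway genes, which start complement without C1q, 2 were tested and 0 called: the protease gene Masp2 at 7.06, 7.41 and 7.52 and the collectin gene Colec12 at 5.70, 6.71 and 6.24. The control mean of Colec12 lay below the filter value, so this gene passed the filter only through its LED arrays. Of 4 tested membrane regulators 0 were called. Cd59a, an inhibitor of the membrane attack complex, read 10.43, 10.69 and 10.65, and Cr1l, the rodent regulator Crry, 8.11, 8.62 and 8.33.

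Of 6 tested genes for C1q binding proteins and complement receptors 0 were called, with medians of 0.23 under 2954K light and 0.42 under 7378K light against -0.02 and 0.01 over all tested probe sets. Calr, calreticulin, which binds C1q on dying cells, read 12.80, 13.11 and 13.21 (adjusted p = 0.42 and 0.12), and Megf10, a glial engulfment receptor, 9.20, 9.65 and 9.64 (adjusted p = 0.40 and 0.19). Itgb2, the beta chain of complement receptor 3, was not tested, since its mean over all arrays lay below the filter, and read 4.11 ± 0.77, 6.59 ± 0.41 and 6.68 ± 0.18.

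Other genes whose proteins carry a C1q-like globular domain were listed as relatives of the chains by structure. Of 23 on the array, 11 were tested and 0 called, which is near the overall share, with medians of 0.00 and 0.06. The synaptic organiser gene C1ql1 read 8.71 ± 0.24, 9.02 ± 0.64 and 9.51 ± 0.10 (adjusted p = 0.67 and 0.12), with the smallest unadjusted p of these genes under 7378K light. The cerebellin gene Cbln1 read 8.16, 8.57 and 8.45 (adjusted p = 0.42 and 0.36), with the smallest under 2954K light, and C1ql3 11.62, 11.42 and 11.31.

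**Figure D4:**
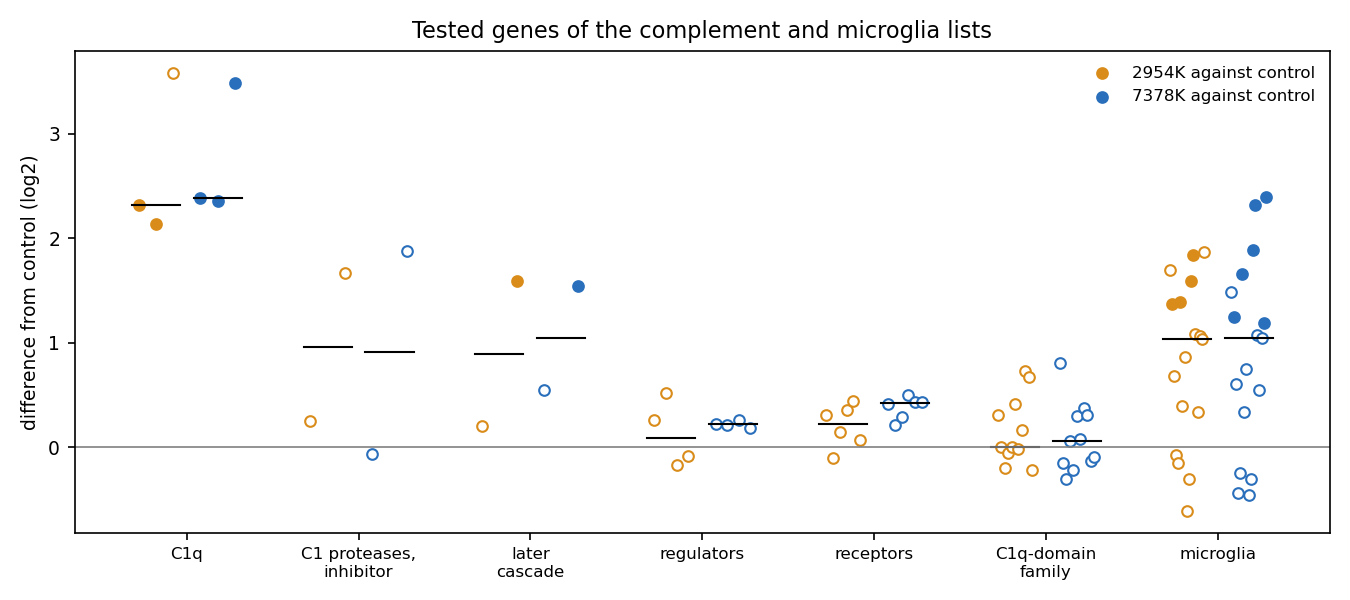
Differences from control (log2) of the tested genes of 7 lists, 1 probe set per gene, with filled points for an adjusted p under 0.05 and black lines for medians. Filled points lie among the C1q, later cascade and microglial genes, and 0 of 11 other C1q-domain genes are filled. Over all tested probe sets 0.496% (2954K) and 1.25% (7378K) were called higher, so 0 in a short list is near the overall share.

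Microglial genes, from a list of markers of the known C1q source, were higher in part. Of 17 tested, 4 were called higher under 2954K light and 6 under 7378K light, with 0 lower and medians of 1.03 and 1.04. The markers Aif1, Gpr34 and Ptprc had control means below the filter value and passed the filter only through their LED arrays. The tested set is therefore tilted upward. Over all 21 markers on the array, tested or not, the medians were 0.86 under 2954K light and 1.03 under 7378K light. Ctss, the lysosomal protease cathepsin S, rose 3.01-fold and 3.70-fold (adjusted p = 0.00045 and 6.8e-05). Tyrobp, the signalling adaptor DAP12, rose 2.62-fold and 3.15-fold (adjusted p = 0.0077 and 0.0019), and Csf1r, the receptor for microglial survival factors, rose 2.58-fold and 2.36-fold (adjusted p = 0.0065 and 0.0076).

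Ly86, also in this list, rose 3.57-fold and 4.99-fold (adjusted p = 0.00096 and 0.00011), and the Fc receptor gene Fcgr3 and the leukocyte gene Ptprc passed under 7378K light, with adjusted p of 0.046 and 0.045. Ptprc read 5.43, 3.67 and 5.91 in controls, with a mean below the filter value, and passed the filter only through its LED arrays. Markers of resting microglia went both ways, with no call. The purine receptor genes P2ry12 and P2ry13 read 6.93, 6.85 and 6.49, and 6.78, 6.62 and 6.53, the lectin gene Siglech 6.73, 6.12 and 6.28 and Olfml3 8.04, 7.73 and 7.74, with LED arrays that overlapped the controls. The fractalkine receptor gene Cx3cr1 read 7.02, 7.70 and 7.62 (adjusted p = 0.38 and 0.21) and the receptor gene Gpr34 5.61, 6.47 and 6.36 (adjusted p = 0.39 and 0.23), with every LED array above the controls. Of the markers not tested, their means being below the filter, Tmem119 read 4.28, 6.24 and 6.43 and Hpgds 4.99, 5.81 and 6.02, also with every LED array above the controls. Trem2 read 5.43, 4.05 and 5.07 and Fcrls 5.53, 6.17 and 5.37, with overlap. The signals of the 21 markers on the array were also summed before taking logs. The brightest genes, Ctss and Csf1r, both called higher above, weigh most in this sum. The sum was 11.68 to 12.20 (log2) in controls, 12.98 to 13.14 in 2954K arrays and 13.08 to 13.28 in 7378K arrays. Its part in the C1q values was not tested, and in pooled tissue more cells of a type and more RNA per cell cannot be told apart.

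Of the transcription factors of myeloid cells, Cebpb rose under 7378K light, as the 1 factor called of 7 tested, and read 8.16 ± 0.40, 9.38 ± 0.53 and 9.38 ± 0.05 (adjusted p = 0.081 and 0.040). Over all tested probe sets 1.25% were called higher under 7378K light. Irf8 read 6.34, 7.08 and 7.16 (adjusted p = 0.37 and 0.13). Mef2c, the only tested factor that was lower, read 10.55, 10.16 and 10.12 (adjusted p = 0.20 and 0.065), with every LED array below the controls. Spi1, which encodes PU.1, was not tested, since its mean lay below the filter, at 6.21 ± 0.51, 6.09 ± 0.67 and 5.17 ± 1.03.

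Markers of other cells that can carry C1q or enter with blood were counted in the same way. Of 15 monocyte and macrophage genes 5 were tested and 1 called, Lyz2, a lysozyme, which rose 2.97-fold and 3.43-fold (adjusted p = 0.037 and 0.011). The shares called higher over all tested probe sets were 0.496% under 2954K light and 1.25% under 7378K light. Ccr2, Cd163, Mrc1 and F13a1 of that list lay below the filter. The summed signal of the list, in which bright genes again weigh most, was 10.40 to 10.65 in controls. It was 10.60 to 10.79 in 2954K arrays and 10.78 to 10.92 in 7378K arrays. Its part in the C1q values was not tested. Of 8 neutrophil genes 1 was tested and 0 called, and of 11 dendritic and lymphoid genes 4 were tested and 0 called. Of 9 tested pigment epithelium, 8 melanocyte, 9 lens, 1 erythrocyte and 4 muscle genes 0 were called in either comparison. Of 16 neural retina genes 0 were called under 2954K light, where 0.0518% of tested probe sets were called lower, and 2 fell under 7378K light, where 0.951% were. These were the rod channel subunit gene Cngb1, at 12.32, 11.97 and 11.61 (adjusted p = 0.34 and 0.015), and Prph2, which encodes a protein of the photoreceptor discs, at 13.78, 13.50 and 12.99 (adjusted p = 0.53 and 0.045).

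Genes next to C1q on chromosome 4 were read for position. Beyond C1qa, the ephrin receptor gene Epha8 read 8.54, 8.59 and 8.98 (adjusted p = 0.97 and 0.40). The zinc finger gene Zbtb40 read 8.97, 8.49 and 8.82 (adjusted p = 0.40 and 0.69) and Wnt4, a secreted signal, 5.99, 6.66 and 6.60 (adjusted p = 0.52 and 0.40). On the other side Lactbl1 and Tex46 lay below the filter, and Ephb2 was not analysed here. Of these 3 tested neighbours of C1q 0 were called, which is near the overall share.

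Genes were then ranked by how closely their signal minus control mean followed the mean C1q profile over the 9 arrays, as a root mean square difference. The mean profile of the 5 probe sets ran from -0.71 to 0.55 in controls, 1.95 to 2.40 in 2954K arrays and 2.34 to 2.43 in 7378K arrays. C1qc, with its dim controls, is part of this mean. In control 2 it stood at -2.27, and the other probe sets at -0.51 to -0.04. A ranking without C1qc was not made. Closest to the mean profile was Gbp2, an interferon-induced GTPase, at 0.20, with group means of 6.32, 8.34 and 8.47 and its lowest control again in control 2. Next came Lad1, which encodes a filament protein of basement membranes, at 0.23 and A2m, the protease inhibitor alpha-2-macroglobulin, at 0.26.

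The following genes were Rnase4, a secreted ribonuclease, at 0.32, the stress-induced transcription factor gene Atf3 at 0.33, the oncostatin M receptor gene Osmr at 0.34, the chemokine gene Ccl12, whose control mean of 4.84 lay below the filter value, at 0.43, the lysozyme gene Lyz1 at 0.44, Ly86 at 0.45 and Nudt6 at 0.48. Nudt6 overlaps Fgf2 on the opposite strand, and its signal is uncertain for that reason. Since the ranking used the difference from control, it describes which genes differed from control by a like amount as C1q, and gives no test.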

How the data were processed

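The processing notes of the submitters name MAS5 and affy, with no version or role, and the deposited values are log2 signals per probe set on Affymetrix mouse arrays. The log2 scale was inferred from the deposited values: 2 raised to them had a 2% trimmed mean of 500 on each array. They were used without further scaling. No detection calls were read, and the precision is limited by how few arrays there are. Genes were named by the platform annotation, and 64 control probe sets were left out.

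In R 4.3.3 with limma 3.58.1 (lmFit, contrasts.fit, eBayes with an intensity trend), 1 mean for each group was estimated from 9 arrays over 27022 probe sets (mean at or above the 40th percentile, 5.91), with Benjamini-Hochberg adjustment over all of them. The code was tested on simulated data. Correlations used scipy 1.17.1. Of each list, the genes called or otherwise up to 4 with the smallest p could be named. C1ra, Itgb2, Spi1, Irf8, Mef2c, the resting microglial genes and the neighbours of C1q were singled out after their values were seen. The labels call the pools biological replicates, so p-values rest on the spread between pools. That spread is shared over all groups and moderated by the intensity trend over all tested probe sets. The members, lists and alternatives were chosen with earlier results of these data known.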

Additional observations from a re-analysis of the deposited data

How the results depend on the processing

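C1qa kept its call in 21 of 22 alternatives for 2954K and 22 of 22 for 7378K, with differences of 2.06 to 2.77. The counts of called probe sets, 148 for 2954K and 594 for 7378K, became 85 and 198 with no intensity trend, 39 and 4803 with only the compared groups in the fit, and 51 and 87 without the third array of each group. For 7378K the count was 173 with the 3' minus 5' covariate and 81 with that of dap. Leaving out 1 array gave 76 to 2158 for 2954K, 136 to 3421 for 7378K and 0 to 354 for 7378K against 2954K. The C1qc call for 7378K ended at 3.49 with no trend (adjusted p = 0.11) and with a robust prior (0.069), at 3.35 with the covariate, 2.32 with dap and 4.40 without the third arrays, and leaving out 1 array gave 2.36 to 4.39. C1qc for 2954K passed at 2.84 with values under 5 set to 5 and at 3.59 with 1 probe set per gene, and leaving out 1 array gave 2.45 to 4.49. With only the compared groups, the 2954K calls of 1417063_at (1.74) and 1434366_x_at (1.30) ended. Without the third arrays those of C1qa (2.46), 1417063_at (1.81), 1434366_x_at (1.40) and 1437726_x_at (2.09) ended for 2954K, as did those of 1417063_at (2.08) and 1437726_x_at (2.31) for 7378K. This fit had fewer arrays. Leaving out 1 array gave 1.53 to 2.01 for 1417063_at under 2954K light, its call ending without 2954K 3 (1.69, adjusted p = 0.058). Between the LED groups it gave -0.13 to 0.35 for 1417063_at and -0.17 to 0.25 for C1qa, with both reversals (-0.13 and -0.17) without 2954K 1. The filter at the 60th percentile left C1qc out. The cause of the other changes was not tested.

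Arrays of different groups share only a replicate number. The deviations of same-numbered arrays from their group means correlated at 0.01 to 0.30 over 9 pairs, 2 of them above 0.1, and an array correlated best with its own number in 16 of 18 comparisons, a hint from the data and not from the design. With the replicate number as a block, 153 probe sets were called for 2954K, 1273 for 7378K and 0 for 7378K against 2954K, and no C1q call changed. Signal over background was not assessed, and the dim controls of C1qc limit how well its difference is known.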
